A study of Mus musculus with 6 samples.

Results

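The PIM kinases are a family of serine/threonine kinases encoded by Pim1, Pim2 and Pim3, and these 3 genes were taken by symbol from a table of 24421 genes. All 3 were listed and all 3 passed the filter on low counts. The table came from bulk RNA-seq of monocytes sorted from the bone marrow of B6 mice. It held 3 GM-CSF libraries, from fresh monocytes given 5 ng of granulocyte-macrophage colony-stimulating factor for 3 h (no volume is stated), and 3 control libraries. The controls are fresh cells by their own source label but part of a 3 h incubation by the treatment label. If they were not cultured, an effect of GM-CSF and one of culture cannot be told apart. The age and sex of the mice are not given, and separate animals or cultures per replicate are not stated, so each p-value speaks only of the spread among these 6 libraries, and that spread may be technical.

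PIM kinases need no activating phosphorylation from an upstream kinase, so their activity depends mainly on how much enzyme is present, and that amount follows transcription, mRNA decay and protein turnover. Cytokine receptors that signal through JAK2 and STAT5, the GM-CSF receptor among them, are known to induce Pim1 in blood cells. PIM kinases share many substrates with AKT and are known for supporting survival, cell cycle entry and cap-dependent translation in haematopoietic cells. Pim1 itself was found as a common insertion site of leukaemia viruses in mouse lymphomas.

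Libraries held 16643228 to 25232956 reads assigned to genes. GM-CSF replicate 3 stood slightly apart. Its correlation with the other GM-CSF libraries was 0.980 and 0.983, that between those 2 was 0.991, and each pair of control libraries gave 0.992 (Pearson's r of log2 CPM, counts per 1000000 gene reads, across 11731 genes, which are not independent replicates). All 9 monocyte markers had reads and summed to 28440 to 30790 CPM in GM-CSF libraries and 59980 to 68910 CPM in control libraries, mostly through Lyz2. Of these 9, 2 rose (Cd14 by 4.43 and Spi1 by 0.75 on the log2 scale), 5 fell (Cx3cr1 by 3.49, Ccr2 by 1.84, Lyz2 by 1.38, Fcgr1 by 0.86 and Ly6c2 by 0.34) and 2 did not pass the edgeR test, among them Csf1r at 1596 to 1666 CPM in GM-CSF and 1362 to 1602 CPM in control libraries. The neutrophil and precursor list of 12 genes (11 of them analysed here, none at 0) summed to 16600 to 20760 CPM in GM-CSF libraries and 28870 to 39750 CPM in control libraries. Its members did not move together. Of the 11, 7 were called lower, from Ltf (-0.90) to Lcn2 (-1.94), and Ctsg was called higher (0.31). The other 3, Mpo, Elane and Prtn3, were not called. The B cell list of 8 genes (7 analysed here) summed to 36.5 to 44.2 CPM in GM-CSF libraries and 63.3 to 73.4 CPM in control libraries, with Pax5 at most at 0.326 and 0.357 CPM. The T and NK cell list of 10 genes summed to 170 to 196 CPM in GM-CSF libraries and 178 to 235 CPM in control libraries, nearly all of it Nkg7, and Cd3e was at most at 1.03 and 0.241 CPM. The dendritic cell list of 8 genes ran from 203 to 249 CPM in GM-CSF libraries and from 108 to 143 CPM in control libraries, mostly through Cd209a (155 to 199 and 23.0 to 51.9 CPM), while 4 of the 8 were called lower and 2 higher, with a median log2 fold change of -0.61. The basophil, mast cell and eosinophil list of 9 ran from 24.6 to 37.9 CPM in GM-CSF and from 16.7 to 30.6 CPM in control libraries, with Epx at 0 in all libraries. Of its 5 tested members, 2 were called higher, Gata2 by 4.48 and Ms4a2 by 1.04 on the log2 scale. The other 3 (Mcpt8, Prss34 and Siglecf) were not called. Gata2 was at 7.87 to 14.2 CPM in GM-CSF and 0.198 to 0.722 CPM in control libraries. The erythroid and megakaryocyte list of 9 summed to 1.74 to 3.16 CPM in GM-CSF and 2.06 to 22.9 CPM in control libraries, so the groups overlapped. Control libraries were uneven, with Pf4 at 0.125 to 11.3 CPM among them. The globin genes Hba-a1, Hba-a2, Hbb-bs and Hbb-bt were at 0. Sequence shared between these paralogs may lose reads, so this 0 does not show that globin RNA was absent. Of tested members, 77.8% of the monocyte, 72.7% of the neutrophil, 75% of the dendritic cell and 40% of the basophil list were called. Over all genes tested that share was 64.0%. The part of these cell types in the PIM values was not tested, and in bulk RNA fewer cells of a type and less RNA per cell cannot be told apart.

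The 3 genes lie on different chromosomes, each on the forward strand of GRCm38 (the assembly that mm10 denotes), and the longest annotated transcript of each has 6 exons. In GENCODE M21, Pim1 (ENSMUSG00000024014.8) is on chromosome 17 at 29490753 to 29496112, Pim2 (ENSMUSG00000031155.16) on chromosome X at 7878262 to 7883432 and Pim3 (ENSMUSG00000035828.11) on chromosome 15 at 88862186 to 88865726. All 3 are protein-coding. An antisense gene, Gm26885, overlaps Pim1 on the other strand. It was not analysed here, and the use of strand in counting is not given in the sources used here, so its reads and those of Pim1 cannot be told apart.

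The promoters are shown because 2 of the 3 genes were called higher in GM-CSF libraries and Pim2 was not called. Each line gives 300 bases from RefSeq on GRCm38.p6, 5′ to 3′, from 250 bases before to 50 bases after the annotated start, with GC boxes (GGGCGG) and CCAAT boxes (CCAAT) on either strand in capitals. The regions are chr17:29490535-29490834 for the outer of the annotated starts of Pim1, chrX:7878056-7878355 for Pim2 and chr15:88861944-88862243 for Pim3, all on the forward strand.
Pim1: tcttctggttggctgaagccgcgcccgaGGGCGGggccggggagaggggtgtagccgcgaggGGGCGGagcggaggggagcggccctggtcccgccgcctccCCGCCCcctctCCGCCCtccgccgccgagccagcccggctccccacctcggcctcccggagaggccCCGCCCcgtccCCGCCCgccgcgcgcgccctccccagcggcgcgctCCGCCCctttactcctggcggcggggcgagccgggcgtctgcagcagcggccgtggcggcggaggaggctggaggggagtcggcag
Pim2: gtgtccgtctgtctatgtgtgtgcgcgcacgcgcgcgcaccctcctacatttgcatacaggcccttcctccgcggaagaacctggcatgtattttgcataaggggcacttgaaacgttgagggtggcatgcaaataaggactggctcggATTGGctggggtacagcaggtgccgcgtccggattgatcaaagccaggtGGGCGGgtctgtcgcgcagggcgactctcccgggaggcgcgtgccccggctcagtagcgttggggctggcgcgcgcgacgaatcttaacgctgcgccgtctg
Pim3: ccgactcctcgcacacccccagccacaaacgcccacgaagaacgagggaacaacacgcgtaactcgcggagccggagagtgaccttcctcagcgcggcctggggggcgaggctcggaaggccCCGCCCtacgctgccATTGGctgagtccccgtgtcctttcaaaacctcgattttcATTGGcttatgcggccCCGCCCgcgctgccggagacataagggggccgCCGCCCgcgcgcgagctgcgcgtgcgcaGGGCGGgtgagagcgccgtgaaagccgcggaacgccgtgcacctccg
The outer Pim1 promoter held 7 GC boxes, from position -222 to -36 relative to the start, and Pim3 held 4, whereas Pim2 held 1. Among 11442 promoters of tested genes, 62.0% held at least 1 GC box, 10.9% at least 4 and 1.29% at least 7. CCAAT boxes numbered 2 in Pim3, 1 in Pim2 and 0 in Pim1, against 38.1% of promoters with at least 1 and 14.4% with at least 2. The GC content was 81.3% for the outer Pim1 promoter, 62.7% for Pim2 and 69.0% for Pim3, beside a median of 60.7% over the same promoters. The letters GCGNGGGCG, with N as any base, are a loose form of the site of EGR factors that overlaps the GC box. They matched at 2 places in Pim3 and at none in Pim1 or Pim2. Both Pim3 matches had C at N, so they are matches to this loose pattern only. At least 1 match was found in 10.2% of promoters and at least 2 in 1.45%. The STAT site TTCNNNGAA did not occur in these windows of any PIM gene, and 7.06% of promoters held it, which says only that these letters are not in this window. Neither CACGTG nor TATAAA occurred in the printed promoters. A further annotated Pim1 promoter, chr17:29492835-29493134, is not printed. It held no GC box, no CCAAT box and 1 CACGTG. Its GC content was 49.0%, and 88.0% of promoters of tested genes had at least as much. The GC boxes given for Pim1 thus belong to the outer start alone. These matches are descriptions of letters and not binding sites.

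The 3′ untranslated regions carry the pentamer ATTTA, the core of AU-rich elements that shorten the life of cytokine and growth factor mRNAs. In the longest protein-coding transcript Pim1 held 5 copies in 1365 bases and Pim3 5 copies in 964 bases, whereas Pim2 held 2 in 915 bases. The density was 3.66 per kb in Pim1, 2.19 in Pim2 and 5.19 in Pim3, beside a median of 1.30 over 10827 tested genes with such a region. A density at least as high was found in 13.0% of these genes for Pim1, 31.5% for Pim2 and 5.68% for Pim3. The 30 bases of each region with the most copies follow, from the GENCODE M21 transcripts, with the pentamers in capitals.
Pim1: ttaatgtATTTATTTATTTATTTAtttggt
Pim2: attATTTAaaaagccatgtgtggaaaccta
Pim3: tggggctATTTAttgtttaATTTAtttgct
Pim1 had 4 overlapping copies in a row and Pim3 had 2 within these bases, while Pim2 had 1. The last Pim2 base shown opens its other copy, so a window slightly longer than 30 bases would hold both.

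GM-CSF libraries held far more Pim3 and Pim1 mRNA than control libraries, and Pim2 mRNA stayed low in both groups. Of the 3 genes, 2 rose, none fell and 1 did not pass the test (edgeR quasi-likelihood test, Benjamini-Hochberg adjusted p under 0.05). Over all 11731 genes tested, 64.0% passed, 32.8% as higher and 31.2% as lower, so that a call by itself sets no gene apart here and the size of the change carries more information.

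Pim3, whose protein is the closest relative of PIM1 in sequence, rose most. It stood at 407, 417 and 421 CPM in GM-CSF replicates 1 to 3, against 21.0, 23.6 and 23.6 CPM in control replicates 1 to 3. The groups lay far apart, and within each group the libraries were close together, with a coefficient of variation (CV) of 1.83% in GM-CSF and 6.64% in control libraries. Counting error alone would give 1.15% and 4.34% for the 6823 to 9044 Pim3 reads per GM-CSF library and the 491 to 596 per control library. The log2 fold change was 4.20 ± 0.08 (SE, n = 3 per group; edgeR adjusted p = 2.64e-11), an 18.3-fold difference with a 95% interval of 16.2 to 20.7. It placed Pim3 175th from the top among all tested genes by fold change and 11th by adjusted p.

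Pim1, the founding member of the family and a classical target of STAT5, rose as well. It was at 392, 293 and 303 CPM in GM-CSF replicates 1 to 3, against 45.1, 40.7 and 44.4 CPM in control replicates 1 to 3. GM-CSF replicate 1 was the highest library, with a 95% counting interval of 383 to 402 CPM that lay above those of the other GM-CSF libraries (285 to 302 and 295 to 310 CPM). Even so, the lowest GM-CSF library was still well above every control library. The log2 fold change was 2.93 ± 0.12 (edgeR adjusted p = 8.82e-09), or 7.63-fold with a 95% interval of 6.34 to 9.19. Each GM-CSF library held 4884 to 6583 Pim1 reads and each control library 923 to 1082. The CV was 16.6% in GM-CSF libraries, where counting error gives 1.29%, and 5.45% in control libraries, where it gives 3.15%. Without GM-CSF replicate 1 the log2 fold change was 2.78.

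Pim2 was the least abundant member. It was at 8.999, 7.51 and 9.08 CPM in GM-CSF replicates 1 to 3, against 8.04, 7.09 and 6.74 CPM in control replicates 1 to 3. The groups overlapped, since GM-CSF replicate 2 lay below control replicate 1. The log2 fold change was 0.23 ± 0.16 (edgeR adjusted p = 0.232), with a 95% interval of -0.13 to 0.60, or 0.915-fold to 1.51-fold. Each library had 125 to 195 Pim2 reads, and counting error alone gives a CV of 7.98% in GM-CSF and 7.65% in control libraries, beside observed values of 10.4% and 9.26%. Changes within that 95% interval are compatible with these libraries, and the interval lies below the folds of Pim1 and Pim3. Non-overlap of the groups as higher in GM-CSF, seen for Pim1 and Pim3, was found for 34.9% of all tested genes, and non-overlap in either direction for 69.5%.

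**Figure D1:**
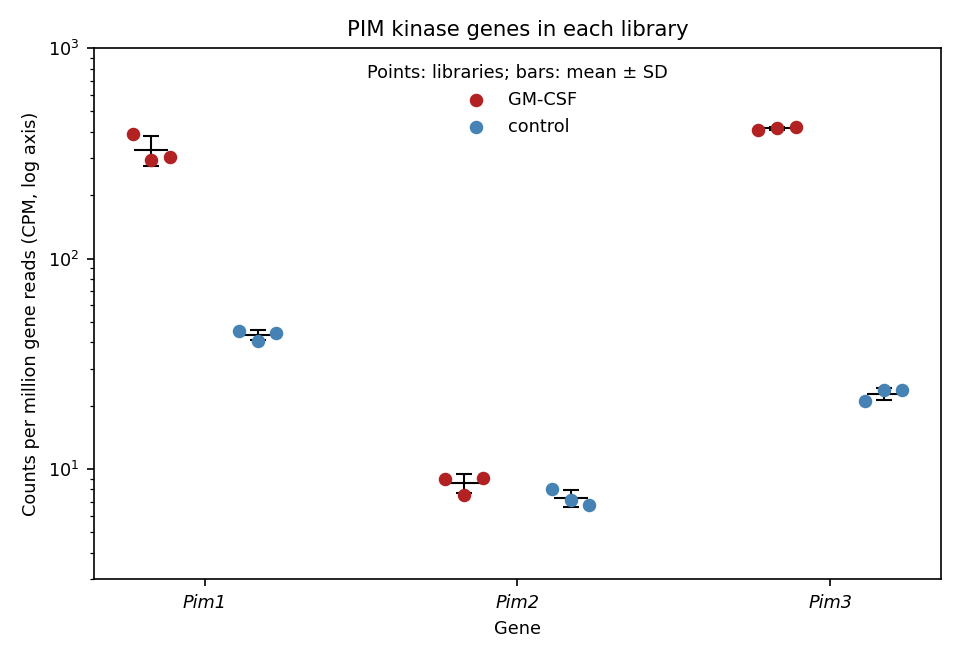
CPM (log axis) of Pim1, Pim2 and Pim3, with GM-CSF libraries (red) left of control libraries (blue). Points are single libraries and bars are mean ± SD of 3 libraries. Pim3 averaged 415 CPM in GM-CSF and 22.8 CPM in control libraries, Pim1 329 and 43.4 CPM, and Pim2 8.53 and 7.29 CPM.

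**Figure D2:**
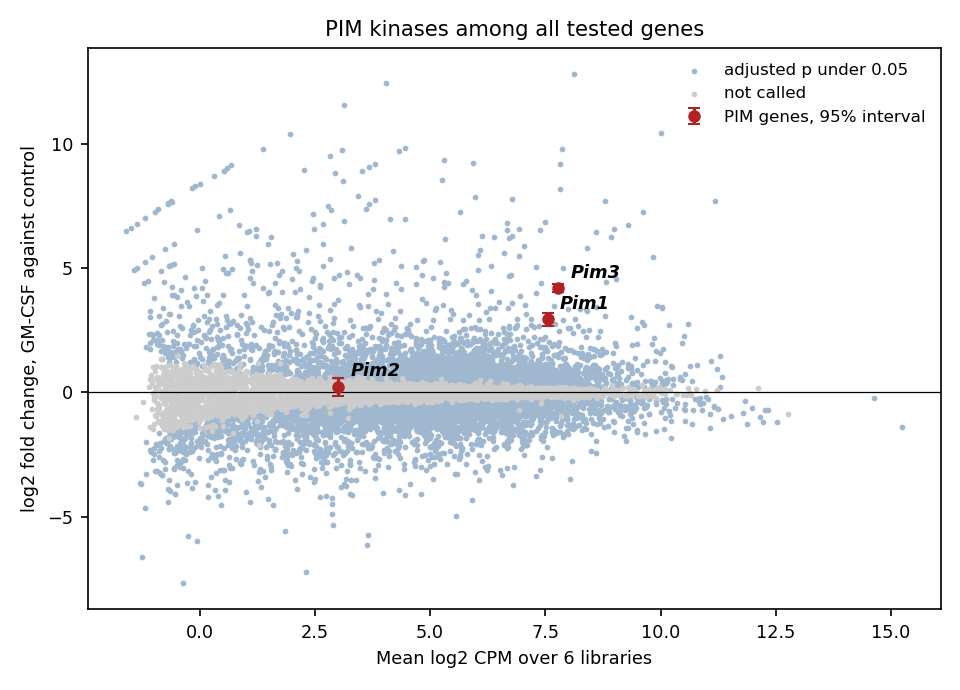
Log2 fold change of GM-CSF against control for each of 11731 tested genes over its mean log2 CPM. Blue points passed an adjusted p of 0.05, grey points did not, and the PIM genes are red with 95% intervals. By log2 fold change, Pim3 (4.20) lies above 98.5% and Pim1 (2.93) above 97.6% of all tested genes. Pim2 (0.23) lies among the grey points.

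All 3 genes together summed to 808, 718 and 733 CPM in GM-CSF replicates 1 to 3, against 74.1, 71.4 and 74.8 CPM in control replicates 1 to 3. The groups did not overlap, and the means of 753 ± 48.1 and 73.4 ± 1.79 CPM (SD, n = 3 per group) differed by 680 CPM (exact two-sided permutation test, p = 0.1, the smallest that 3 against 3 libraries can give).

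To set the members beside each other, reads were divided by exon length (3362 bases for Pim1, 2795 for Pim2 and 2427 for Pim3) and scaled to a sum of 1000000 over all genes (TPM). In GM-CSF libraries the level per length was highest for Pim3, at 521 ± 8.26 TPM, followed by Pim1 at 299 ± 50.1 TPM and Pim2 at 9.30 ± 0.911 TPM (SD, n = 3). In control libraries the order was Pim1 at 34.8 ± 1.26 TPM, Pim3 at 25.3 ± 1.96 TPM and Pim2 at 7.04 ± 0.627 TPM. The ranges of neighbours in either order did not overlap. The level of Pim3 over that of Pim1 was 1.44, 1.97 and 1.93 in GM-CSF replicates 1 to 3, against 0.645, 0.804 and 0.737 in control replicates 1 to 3. Pim1 was thus the main PIM transcript in each of the 3 control libraries and Pim3 in each of the 3 GM-CSF libraries. Among 11286 tested genes with an exon length, Pim3 ranked 285th in GM-CSF and 4332nd in control libraries, Pim1 ranked 523rd and 3540th, and Pim2 ranked 7140th and 7423rd.

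**Figure D3:**
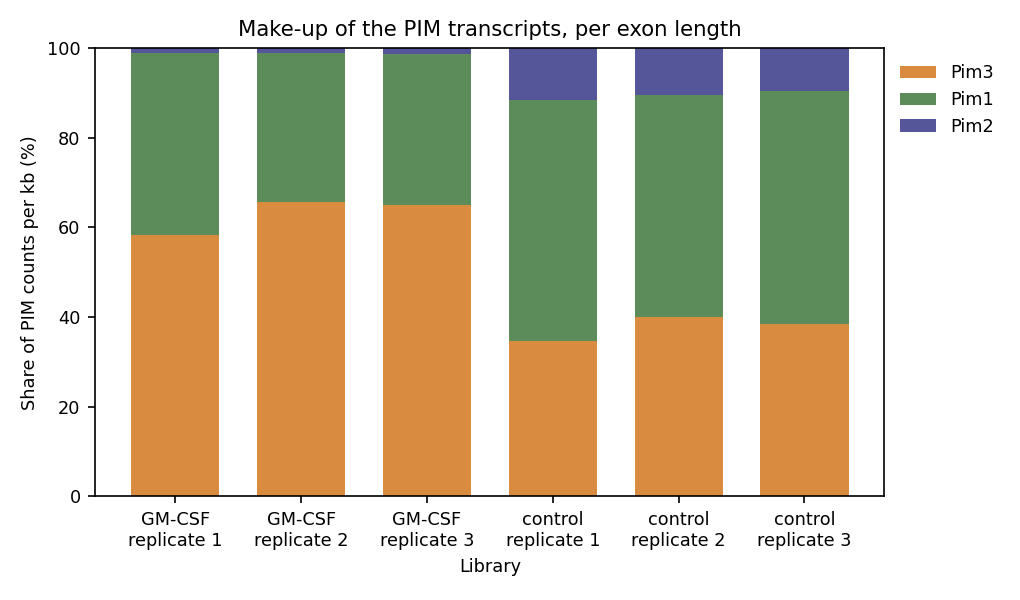
Share of each PIM gene in the summed PIM counts per kb of exon (%), one bar per library, GM-CSF libraries on the left. The Pim3 share runs from 58.3% to 65.7% in GM-CSF and from 34.7% to 39.9% in control libraries, and the Pim2 share from 1.03% to 1.22% and from 9.51% to 11.5%.

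The make-up of the family therefore differed between the groups. Pim3 made up 63.0 ± 4.09% of PIM transcripts in GM-CSF and 37.7 ± 2.69% in control libraries. Pim1 made up 35.9 ± 4.09% and 51.8 ± 2.06%, and Pim2 1.12 ± 0.10% and 10.5 ± 1.02%. None of the 3 shares overlapped between groups (exact permutation p = 0.1 each, the smallest possible, and 0.1 after Benjamini-Hochberg adjustment over the 3). The fall in the Pim2 share came with a CPM that did not pass the test, since a share depends on the other members too. Of the summed increase in TPM, Pim3 held 65.1%, Pim1 34.6% and Pim2 0.297%.

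The unequal response was also read from ratios within each library, which need no scaling between libraries. The log2 ratio of Pim1 to Pim3 reads was -0.05, -0.51 and -0.48 in GM-CSF replicates 1 to 3, against 1.10, 0.78 and 0.91 in control replicates 1 to 3. The groups did not overlap and their means differed by -1.28. The mean log2 ratio of Pim3 to Pim2 was 5.61 in GM-CSF and 1.64 in control libraries, a difference of 3.96, and that of Pim1 to Pim2 was 5.26 and 2.57, a difference of 2.69. Each of the 3 comparisons had an exact permutation p of 0.1, the smallest possible, and 0.1 after adjustment over the 3.

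The PIM genes were next placed among kinases related by sequence or by substrates. PIM kinases belong to the CAMK group, which takes its name from the calmodulin-dependent kinases, and AKT, SGK, S6K and RSK kinases phosphorylate overlapping substrates. Of 37 tested CAMK group genes other than PIM, 15 rose, 11 fell and 11 did not pass (median log2 fold change 0.17, beside 0.01 for all genes tested). That median was 0.34 without GM-CSF replicate 1, 0.07 without GM-CSF replicate 3, 0.27 without control replicate 2, 0.05 with upper quartile scaling and 0.25 with no filter on low counts. The set of tested genes differed in some of these fits. It held 38 genes without GM-CSF replicate 1 or control replicate 2, and 49 with no filter. Of 12 tested AKT, SGK, S6K and RSK genes, 3 rose, 5 fell and 4 did not pass (median 0.05, or -0.07 with upper quartile scaling, 0.03 without GM-CSF replicate 3 or without the 10 most abundant genes, and 0.02 without control replicate 2). Calls made up 70.3% of the CAMK list and 66.7% of the AKT list, near the 64.0% of all genes tested. Among these 49 genes and the 3 PIM genes, Pim3 had the largest log2 fold change, followed by Trib1 and Pim1. Trib1, which encodes a pseudokinase that directs C/EBP factors to degradation, rose by 3.56 ± 0.14 on the log2 scale, to 121 ± 22.1 CPM in GM-CSF, against 10.3 ± 0.412 CPM in control libraries. Dapk1, a death-associated kinase gene, rose by 2.14 ± 0.10, and Camk2g, a calmodulin-dependent kinase gene, by 1.51 ± 0.17.

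By mean level per length, Pim3 ranked 3rd and Pim1 4th of these 52 kinase genes in GM-CSF libraries, and 21st and 16th in control libraries. The place of Pim1 above Rps6ka1 rested on GM-CSF replicate 1 (356 TPM for Pim1 and 252 TPM for Rps6ka1), since Rps6ka1 was the higher of the pair in GM-CSF replicates 2 (268 TPM for Pim1 and 292 TPM for Rps6ka1) and 3 (272 and 308 TPM). Pim2 ranked 37th and 34th. The genes above them in GM-CSF libraries, looked up after the values were seen, were Mapkapk2 (850 ± 165 TPM in GM-CSF and 620.0 ± 34.0 TPM in control libraries, a gene whose edgeR adjusted p was 0.0572) and Mapkapk3 (584 ± 30.1 and 241 ± 2.02 TPM), kinases activated by p38. The ranges of Pim3 (512 to 528 TPM) and Mapkapk3 did not overlap in GM-CSF libraries.

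**Figure D4:**
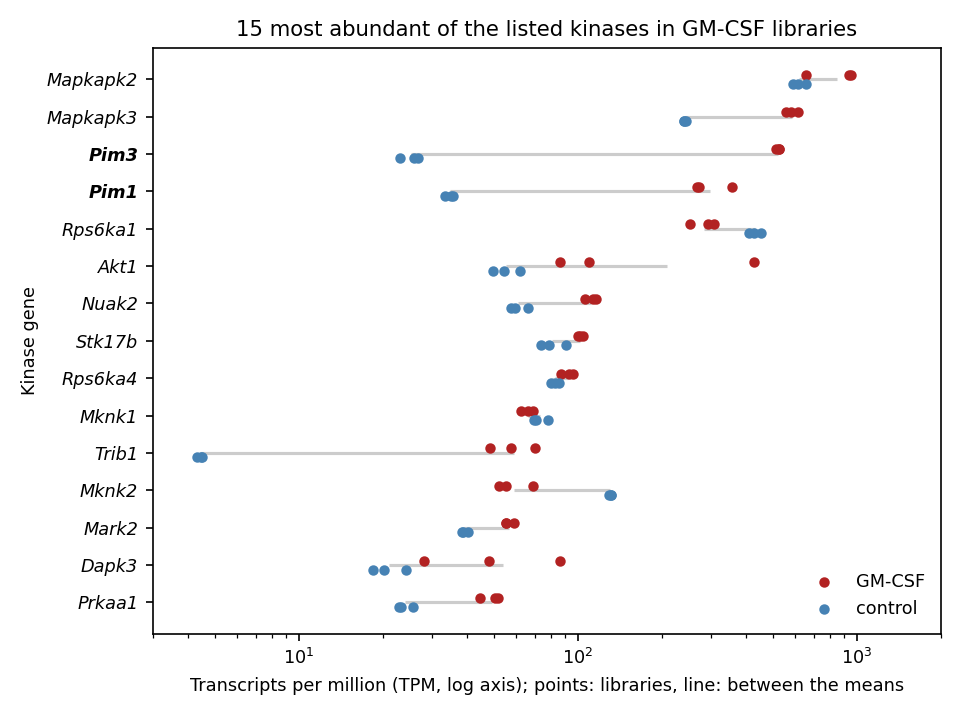
TPM (log axis) of the 15 listed kinase genes most abundant in GM-CSF libraries, with each GM-CSF library in red and each control library in blue, and a line between the group means. Pim3 lies at 521 TPM in GM-CSF and 25.3 TPM in control libraries and Pim1 at 299 and 34.8 TPM, and among the 15 genes the gap is widest for Pim3, Trib1 and Pim1.

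Akt1 rose, but the size of its change rested on a single library. Akt1 was at 116, 147 and 583 CPM in GM-CSF replicates 1 to 3, against 76.3, 91.8 and 83.5 CPM in control replicates 1 to 3. Its log2 fold change of 1.76 ± 0.48 was 0.66 without GM-CSF replicate 3, and the call ended with a robust prior (edgeR adjusted p = 0.110). Akt2 rose by 0.78 ± 0.08. The members that fell were Sgk3 (-0.51), Rps6ka5 (-0.70), Rps6ka1 (-0.77), Rps6ka2 (-0.82) and Sgk1 (-2.17 ± 0.10). Sgk1, a kinase gene that many hormones and stresses induce, was at 13.0 ± 1.08 CPM in GM-CSF and 58.8 ± 1.47 CPM in control libraries. GM-CSF replicate 3 did not stand apart in the PIM genes, whose log2 fold changes without it were 3.00 for Pim1, 0.19 for Pim2 and 4.19 for Pim3, with the same 2 called.

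Upstream of the PIM genes, the receptor beta chain and Jak2 rose while Stat5a and Stat5b fell. The GM-CSF receptor pairs a specific alpha chain with the beta chain Csf2rb, which carries JAK2, and STAT5A and STAT5B are the factors that JAK2 activates there. Of 12 genes for the receptor, Janus kinases, STATs and the phosphatase SHP1, 4 rose, 5 fell and 3 did not pass. Calls made up 75% of this list, beside 64.0% of all genes tested. Its median was 0.01, or -0.10 with upper quartile scaling and -0.02 to 0.04 over the fits that left out 1 library. Jak2 was at 213, 281 and 295 CPM in GM-CSF replicates 1 to 3, against 39.5, 46.2 and 40.8 CPM in control replicates 1 to 3, a log2 fold change of 2.65 ± 0.12. Csf2rb rose by 2.73 ± 0.09, its neighbouring paralog Csf2rb2 by 2.94 ± 0.11, where shared sequence may split or lose reads, and Ptpn6, the SHP1 gene, by 0.95 ± 0.08. The fold change of Pim1, at 2.93, lay among those of Csf2rb, Csf2rb2 and Jak2, and that of Pim3 above them.

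Stat5a was at 43.2, 49.9 and 55.1 CPM in GM-CSF replicates 1 to 3, against 64.0, 68.4 and 63.6 CPM in control replicates 1 to 3. Every GM-CSF library lay below every control library, and Stat5a fell by 0.40 ± 0.10 and Stat5b by 0.55 ± 0.07 on the log2 scale. Among the others that fell were the Janus kinase genes Jak3 (-0.64) and Tyk2 (-0.84). Csf2ra, the alpha chain, was at 508 ± 54.4 CPM in GM-CSF and 482 ± 48.5 CPM in control libraries (log2 fold change 0.08, edgeR adjusted p = 0.449), and its sign turned with upper quartile scaling (-0.03).

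Other targets of STAT5 and feedback genes of cytokine signalling rose with Pim1 and Pim3. The list held 14 genes without the PIM genes, of which 13 were tested. Of these, 11 rose, 1 fell and 1 was not called (92.3% called, beside 64.0% of all genes tested). The median log2 fold change was 3.17. The fold change of Pim3 lay above that median. That of Pim1 lay close to it, and below it in the fit of all 6 libraries. Pim1 lay above the list median without GM-CSF replicate 3 (3.00 for Pim1, against 2.89) or control replicate 1 (2.97, against 2.85). In both of these fits 14 list genes were tested instead of 13, so their medians are over a different set of genes. The largest fold changes were in Cish, Socs2 and Socs3, which encode inhibitors of cytokine receptor signalling. Cish was at 2046 ± 250.3 CPM in GM-CSF and 1.46 ± 0.739 CPM in control libraries. Socs2 had 1554 reads in GM-CSF and 3 in control libraries, so that its CPM ratio was 661 (95% counting interval 226 to 3207). Socs3 had a log2 fold change of 7.27 ± 0.20 and was called higher. Bcl6, a repressor that competes for STAT sites, fell by 0.89 ± 0.11. The list was drawn up with earlier results of these samples known and is not independent evidence of direction.

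Transcripts of PIM substrates moved in both directions. Of 27 listed genes whose proteins PIM kinases phosphorylate, 14 rose, 10 fell and 3 did not pass (88.9% called, beside 64.0% of all genes tested), with a median of 0.32, or 0.20 with upper quartile scaling. Socs3, Cdkn1a and Myc rose most, and Socs3 and Myc are also on the STAT5 list. Cdkn1a, which encodes the cell cycle inhibitor p21, was at 1971, 1586 and 1766 CPM in GM-CSF replicates 1 to 3, against 43.1, 38.6 and 42.2 CPM in control replicates 1 to 3. The groups were far apart, and the log2 fold change was 5.43 ± 0.11, above that of Pim3. Myc, whose product PIM1 is known to stabilise, rose by 3.99 ± 0.13.

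Some further substrates were singled out after their values were seen. The other SOCS gene on the list, Socs1, rose by 3.75 ± 0.13 and the transcription factor gene Runx1 by 2.74 ± 0.08. Those that fell most were Cdc25c (-1.25 ± 0.12), a phosphatase that drives entry into mitosis, the chemokine receptor gene Cxcr4 (-1.17 ± 0.16), the transcription factor gene Myb (-1.13 ± 0.14) and Cdkn1b (-1.12 ± 0.22), which encodes the cell cycle inhibitor p27. Bad, the death-promoting BCL2 relative that PIM kinases inactivate, fell by 0.34 ± 0.13 (edgeR adjusted p = 0.0393), although the groups overlapped and 5 of the 6 fits that left out 1 library lost the call (adjusted p 0.0594 to 0.138). It was at 27.6, 28.7 and 38.9 CPM in GM-CSF replicates 1 to 3, against 41.2, 38.4 and 42.1 CPM in control replicates 1 to 3. Transcript levels do not show whether a substrate was phosphorylated.

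Most genes of mTORC1 and cap-dependent translation, the branch that PIM kinases share with AKT, rose. Of 16 genes, 10 rose, 4 fell and 2 did not pass (87.5% called, beside 64.0% of all genes tested), with a median of 0.51. The largest were Eif4a1 (1.33 ± 0.10) and Eif4e (1.15 ± 0.08), which encode the RNA helicase and the cap-binding protein of the initiation complex, together with Ddit4 (1.88 ± 0.49), an mTORC1 inhibitor gene with few reads (3.26 ± 1.87 CPM in GM-CSF and 0.882 ± 0.214 CPM in control libraries). The members that fell were Eif4ebp2 (-0.45), Tsc2 (-0.52), Mlst8 (-0.61) and Eif4ebp1 (-0.86 ± 0.10). Eif4ebp1 and Eif4ebp2 encode repressors that hold the cap-binding protein, Tsc2 an inhibitor of mTORC1 and Mlst8 a subunit of it. Inhibitor genes of mTORC1 were thus among those that rose and among those that fell. These counts therefore give no direction of mTORC1 activity, which was not tested.

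Genes that act on PIM protein or on AU-rich mRNAs mostly rose. HSP90 is known to protect PIM1 protein and the phosphatase PP2A to promote its loss, while ZFP36 proteins bind AU-rich elements and speed mRNA decay. Of 11 genes, 9 rose, 1 fell and 1 did not pass (90.9% called, beside 64.0% of all genes tested), with a median of 0.58. The list pools genes of opposite action, so its count and median give no direction for PIM. Of the HSP90 genes, looked up after the values were seen, Hsp90ab1 rose by 0.43 ± 0.09 and Hsp90aa1 was not called (0.18 ± 0.11). Zfp36l1 rose by 5.04 ± 0.18, to 50.9 ± 5.36 CPM in GM-CSF, against 1.57 ± 0.417 CPM in control libraries, and Zfp36 by 1.96 ± 0.08. Ppp2cb, a catalytic subunit gene of PP2A, was at 36.7, 41.5 and 110 CPM in GM-CSF replicates 1 to 3, against 28.1, 25.6 and 28.0 CPM in control replicates 1 to 3. Its log2 fold change of 1.22 ± 0.34 was 0.53 without GM-CSF replicate 3, and the call ended with a robust prior (edgeR adjusted p = 0.0958). Zfp36l2 fell by 0.24 ± 0.10 with overlapping groups, and that call ended without GM-CSF replicate 1 (-0.18) or 3 (-0.21) or control replicate 1 (-0.22) or 2 (-0.19).

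**Figure D5:**
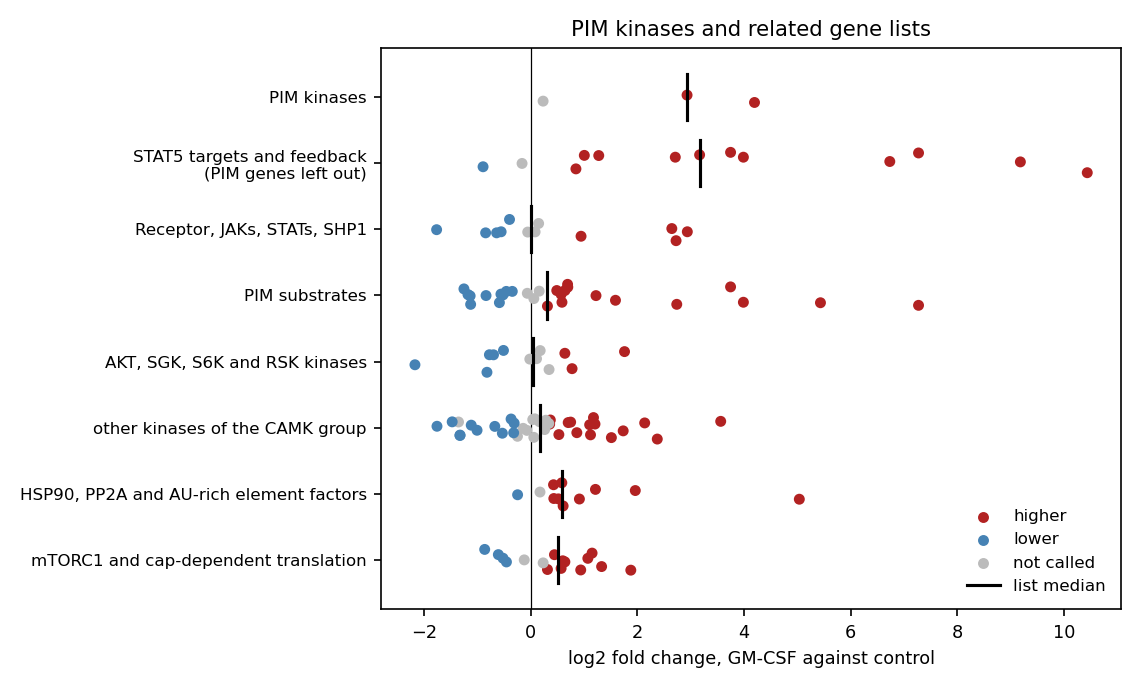
Log2 fold change of GM-CSF against control for the tested members of the PIM family and of 7 related lists, one point per gene, with the list median as a black bar. Red genes were higher, blue genes lower and grey genes not called at an adjusted p of 0.05. The STAT5 target list (median 3.17) lies highest among the related lists, and the receptor list (0.01) and the AKT list (0.05) spread to both sides of 0.

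The genes most like each PIM gene were found by the root mean square difference over the 6 libraries, in log2 CPM after subtracting each gene's control mean, over 8278 candidates whose log2 CPM averaged 3 or more. This measure mostly reflects the size of the response. For Pim3 they were Plk3 (0.13), a polo-like kinase gene, the amino acid transporter gene Slc7a5 (0.19), Cass4 (0.19), a scaffold gene of cell adhesion, and B3gnt5 (0.20), a glycosyltransferase gene. Plk3 was at 75.5, 73.8 and 75.1 CPM in GM-CSF replicates 1 to 3, against 3.54, 3.57 and 4.81 CPM in control replicates 1 to 3, and rose by 4.25 ± 0.13. For Pim1 they were Dcun1d3 (0.11), Adora2b (0.11), Gnl3 (0.13) and Tlr2 (0.14), all of which rose, by 2.91 to 3.04 on the log2 scale. Adora2b encodes an adenosine receptor, Gnl3 a nucleolar protein and Tlr2 a receptor for bacterial lipoproteins. For Pim2 they were Wasl (0.05), Nsa2 (0.06), Ndnl2 (0.06) and Lgals8 (0.06), none of which passed the test.

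Of the nearest protein-coding neighbours 4 were tested, 1 each for Pim1 and Pim3 and 2 for Pim2. On the downstream side Ttll8, next to Pim3, had no reads, and Gm17657, next to Pim1, was not analysed here. Creld2, the protein-coding gene 35502 bases upstream of Pim3, rose by 0.89 ± 0.10, against 4.20 for Pim3. Fgd2, 111091 bases upstream of Pim1, fell by 1.42 ± 0.08, to 30.6 CPM in GM-CSF, against 82.1 CPM in control libraries. Around Pim2, Otud5, 1635 bases upstream, had a log2 fold change of -0.05 ± 0.07 (edgeR adjusted p = 0.511), and Slc35a2, 595 bases downstream, rose by 0.44 ± 0.10. These neighbours were looked up by position after the PIM values were known.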

How the data were processed

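The 3 GM-CSF and 3 control libraries share 1 deposited table of raw counts per gene symbol, whose columns carry the sample titles. Reads were paired and made from poly(A) RNA, per the labels. Tools listed in the submitters' processing notes, with no role, are STAR 2.5.2a, HTSeq 0.6.1p1, Trim Galore 0.4.4 and edgeR, and the build is mm10. Neither the annotation nor the strand setting is given in the sources used here.

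Reads outside genes (7.82% to 9.72% per library), without a unique position (18.0% to 19.6%) or ambiguous (1.44% to 1.53%) were left out. The test was edgeR 4.0.16 (R 4.3.3), a quasi-likelihood F test with TMM scaling and group as the only term. A filter by filterByExpr (10 counts, 15 in total) left 11731 of 24421 genes, and p-values were adjusted by Benjamini-Hochberg over all of these (threshold 0.05). Fold changes are GM-CSF against control. The SE is the absolute log2 fold change over the square root of F. CPM is on the total of gene counts. TPM was computed here with exon lengths from GENCODE M21 for 23334 symbols. Exact permutation tests used scipy 1.17.1. Counting intervals cover counting error only. The test was tried on simulated data.

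The members and lists were chosen with earlier results of these data known. Genes named were the PIM genes, from each list the 3 called members with the largest absolute log2 fold change and a mean log2 CPM of at least 1, every called member of a direction holding 5 or fewer, and Csf2ra, Csf2rb, Jak2, Stat5a and Stat5b. For each PIM gene the 4 genes most like it were added. Other names are marked as chosen later, and 2 genes that the rule selects are not reported here. Alternatives were other scalings, filters and tests (DESeq2 1.42.0, limma-voom with limma 3.58.1), a replicate block, leaving out each library, and other lengths and added counts.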

Additional observations from a re-analysis of the deposited data

How the results depend on the processing

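Across the 16 alternatives to the edgeR fit, Pim1 and Pim3 were called higher and Pim2 was not called each time. The log2 fold change ran from 2.78 to 3.02 for Pim1, from 0.12 to 0.33 for Pim2 (adjusted p 0.137 to 0.548) and from 4.08 to 4.22 for Pim3. Upper quartile scaling moved the median of all genes by -0.12 on the log2 scale and the split of calls to 3257 higher and 4318 lower, against 3851 and 3660. Total counts of called members of the 7 related lists stayed within 1.5 times of those reported. By direction, the 1 STAT5 list member called lower became 2 with upper quartile scaling and without GM-CSF replicate 3, and the 1 called lower on the HSP90 list became 0 in 4 of the fits that left out a library. Leaving out 1 library each gave log2 ratios of Pim1 to Pim3 differing by -1.42 to -1.19 between groups, and Pim3 shares differing by 23.8 to 27.7 percentage points. Of 608 values of the 38 other list genes that the rule selects, 601 kept direction and call, 6 calls were lost and 1 sign turned, Csf2ra with upper quartile scaling (-0.0342).

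Replicate numbers are shared by the groups, but nothing in the labels says that they pair samples. Deviations from the group means of same-numbered libraries correlated at 0.0727, 0.0098 and 0.0038 across genes, and libraries did not all correlate best with their own number. With the replicate block the log2 fold changes were 2.92 for Pim1, 0.23 for Pim2 and 4.20 for Pim3, with 3848 genes higher and 3645 lower. The block changed no call of a PIM gene. The cause of the lost calls was not tested. Depth limits Pim2 most, with 125 to 195 reads per library.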
